A study of Mus musculus with 11 samples.

Results

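Synaptic vesicle and SNARE genes were examined in the main olfactory epithelium (MOE) of newborn mice with and without Bcl11b. The genes were chosen by name. They comprised the synaptotagmins (Syt), syntaxins (Stx), syntaxin binding proteins (Stxbp), vesicle-associated membrane proteins (Vamp), complexins (Cplx), Rab3 GTPases and Sv2 glycoproteins. They also included Snap23, Snap25, Snap29, Snap47, Snap91, the synapsins Syn1 to Syn3 and synaptophysin (Syp). Of 151 probe sets of 63 genes that carried such a name alone, 136 probe sets of 60 genes had a mean signal of at least 20 over the arrays and were kept. These were a small part of the 33662 probe sets and 15133 genes tested in all. Each of 22 genes had 1 probe set and each of 38 had several, which share their target gene. Syt6, Cplx3 and Cplx4 had only probe sets below the minimum.

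Olfactory sensory neurons (OSNs) lie in the MOE and send their axons to the olfactory bulb, where they release glutamate from synaptic vesicles. The messages for the release machinery are made in the cell bodies. At a terminal, a vesicle R-SNARE (Vamp1 or Vamp2) zippers with the Q-SNAREs Snap25 and Stx1a of the plasma membrane, and this pulls the membranes together. Complexins hold the partly zippered complex, and synaptotagmins such as Syt1 trigger fusion when calcium enters. Other family members serve traffic between the Golgi, endosomes and the surface in every cell.

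Whole MOE was dissected at postnatal day 0 from BALB/c mice, and RNA was isolated from each preparation separately and hybridised to 1 expression array. There were 5 wild type arrays, all from males, and 6 from Bcl11b KO mice, 4 males and 2 females (KO 3 and KO 6). Heterozygous parents of both sexes gave all of these offspring. The KO is conventional, so the Bcl11b mutation is in all cells of the animal and not only in OSNs. Litters were not given in the sources used here. The Bcl11b product is a DNA-binding zinc finger protein that regulates transcription.

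Median signals of the arrays ran from 56.6 to 85.7 in wild type and from 62 to 86.5 in the KO. The ratio of the 3′ to the 5′ GAPDH probe sets, a sign of RNA integrity, was 1.88 to 2.27 in wild type and 1.82 to 2.70 in the KO, highest on KO 3 and KO 2. The brightest Bcl11b probe set read 2694.3 to 4122.7 on the wild type arrays and 560.5 to 1249.8 on the KO arrays, so every array matched its labelled genotype. Its log2 difference was −1.88 with an SE of 0.17 (limma adjusted p = 1.2e-05). The ratio of the KO mean to the wild type mean was 0.27, so the signal was lowered but not absent. KO 5 stood apart from the other arrays in genes of olfactory bulb neurons. Gad1, an enzyme of GABA synthesis, read 829.6 on KO 5, 223.7 on KO 6 and 8.7 to 114.5 on the other 9 arrays. For this reason, several values below are also given without KO 5.

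Of the 136 probe sets, 1 passed the test as higher in the KO, 0 passed as lower and 135 did not pass (limma, Benjamini-Hochberg over all probe sets tested, threshold 0.05). The background of calls was 0.455% of all probe sets, 0.244% as higher and 0.211% as lower. The probe set that passed belonged to Syt13. By the brightest probe set of each gene, 1 of the 60 genes was called, against 0.674% of all genes. Signals are in units in which GAPDH reads 10000, and each difference is KO minus wild type on the scale log2(signal + 16). In these bulk preparations, fewer cells of a type and less RNA per cell cannot be told apart.

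The estimates of the members were small in both directions. They were above 0 for 86 probe sets and below 0 for 50, which is 63.2% above 0, beside 60.4% of all probe sets. Their median was 0.06, beside 0.05 over all probe sets tested. The median size without regard to sign was 0.13 in both. Of the members 12 differed by over 0.5 in either direction, or 8.82%, beside 4.49% of all. The median half-width of the unadjusted 95% interval of a member was 0.38. For a typical member, smaller differences could not be told from 0 even without adjustment. The adjusted threshold asked for larger differences. Rab3c, at −0.64 ± 0.18 with its brightest probe set, did not pass it (limma adjusted p = 0.187).

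At an unadjusted p under 0.05 there were 19 member probe sets, or 14.0%, where the background was 6.92%. Of these 9 had higher values in the KO, 6.62% of the members against a background of 4.47%. They belonged to Syt13, Vamp7 and Stxbp4 with 2 probe sets each and to Sv2c, Syt4 and Stx6 with 1 each. The other 10 had lower values, 7.35% of the members against a background of 2.45%. They belonged to Stxbp5l with 3 probe sets, Rab3c and Stx1a with 2 each, and Syt14, Syt16 and Stx19 with 1 each. Probe sets of the same gene are not independent. By the brightest probe set, 11 of the 60 genes were at this p, or 18.3%, beside 8.48% of all genes. Of these 5 were higher, 8.33% beside 5.61%, and 6 were lower, 10% beside 2.87%. The groups did not overlap in 4 member probe sets, or 2.94%, beside 1.29% of all. Separate and higher in the KO were 1 of Syt13 and 1 of Vamp7, with a background of 0.716%. Separate and lower were 2 of Rab3c, with a background of 0.573%. Stx6 and Stx19 were named only after their values were seen.

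**Figure D1:**
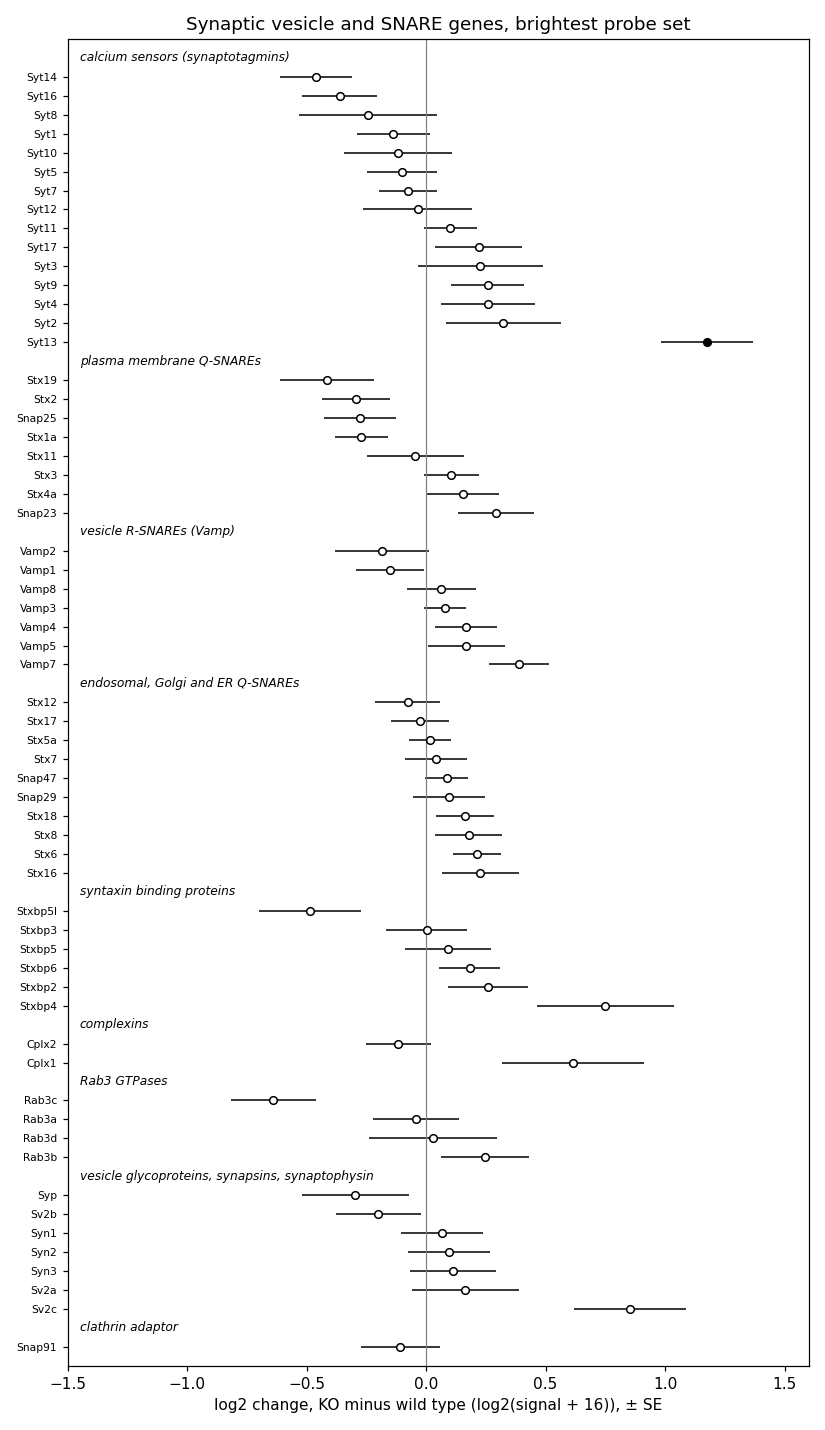
Log2 difference of each of the 60 genes by its brightest probe set, KO minus wild type on the log2(signal + 16) scale, with its SE, grouped by role. The filled point passed the test (Syt13, 1.18); open points did not, and most of them lie within 0.5 of 0.

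Synaptotagmins carry paired C2 domains that in several members bind calcium and membranes. Of 15 synaptotagmin genes, 1 was called as higher and 0 as lower, and the estimates were above 0 for 7 and below 0 for 8. The share above 0 was 46.7%, beside 61.2% of all genes. Syt13 is a divergent synaptotagmin that lacks calcium-binding residues in its C2 domains. Its brightest probe set read 74.8, 61.1, 58.7, 38.8 and 68.7 on the wild type arrays. On the KO arrays the lowest value was 112.3, the median 156.7 and the highest 221.5. All KO arrays therefore lay above all wild type arrays. The means were 60.4 ± 13.7 (SD, n = 5) and 158 ± 41.4 (SD, n = 6), a ratio of 2.62. On the log2(signal + 16) scale Syt13 rose by 1.18 ± 0.19 (SE, 95% interval 0.77 to 1.58, limma adjusted p = 0.00545).

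The other Syt13 probe set was dim, with a mean signal of 14.0 in wild type and 26.5 in the KO. Its difference was 0.54 ± 0.22 (limma adjusted p = 0.587). It pointed the same way, but its groups overlapped. The mean over both probe sets differed by 0.86 (limma adjusted p = 0.0112). Without KO 5 and KO 6, the arrays with the highest Gad1 signal, the brightest probe set differed by 1.17 (limma adjusted p = 0.0418). Among the arrays of higher poly-A spike-in signal, 2 wild type and 3 KO, the difference was 1.12 (limma adjusted p = 0.148). Among those of lower signal, 3 wild type and 3 KO, it was 1.18 (limma adjusted p = 0.242). With this division as a covariate it was 1.16 (limma adjusted p = 0.00391).

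**Figure D2:**
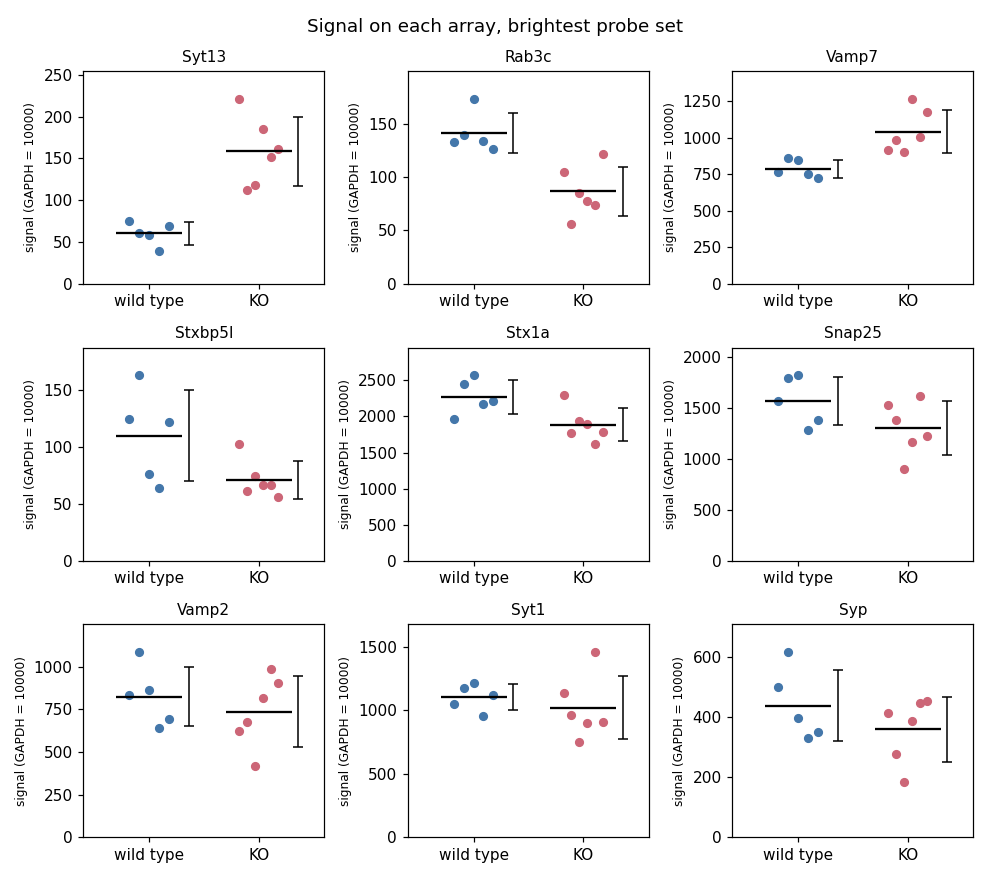
Signal of the brightest probe set of 9 genes on each array, on a linear axis from 0 in units of GAPDH = 10000; each point is an array, the line the mean and the bar the SD (n = 5 wild type, n = 6 KO). The groups are separate for Syt13, Rab3c and Vamp7 and overlap for Stxbp5l, Stx1a, Snap25, Vamp2, Syt1 and Syp.

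Syt14 and Syt16, which also bind no calcium, had lower values in the KO and did not pass. Syt14 read 423.4, 568.3, 472.6, 427.5 and 473.5 in wild type, and 279.5 at the lowest, 325 at the median and 468.1 at the highest in the KO. KO 1 lay among the wild type values and the other KO arrays lay below them. The difference was −0.46 ± 0.15 (limma adjusted p = 0.341). Scaled on the spiked hybridization controls in place of GAPDH, which moved the median of all probe sets to −0.12, it was −0.64 and passed (limma adjusted p = 0.0401). For Syt16 the difference was −0.36 ± 0.16 (limma adjusted p = 0.635), with a KO range of 128.4 to 218.3 against 215.1 to 299.4 in wild type. Syt4, an atypical synaptotagmin of neurons, had estimates of 0.46 ± 0.20 and 0.26 ± 0.20 in its probe sets (limma adjusted p = 0.623 and 0.932).

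Syt1, the calcium sensor of fast transmitter release, read 1049.0, 1175.4, 1213.1, 958.1 and 1119.2 in wild type. In the KO the lowest value was 751.4, the median 938 and the highest 1459.0, on KO 5. KO 3, KO 4 and KO 6 lay below all wild type arrays, KO 5 lay above them and the other KO arrays lay among them. The difference was −0.14 ± 0.15 with a 95% interval of −0.46 to 0.18. Without KO 5 it was −0.25. The remaining synaptotagmin genes lay between −0.24 (Syt8) and 0.32 (Syt2), and none of these passed. Syt7, a slower and more sensitive calcium sensor, differed by −0.08 ± 0.12.

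Of the 8 genes of plasma membrane Q-SNAREs, 0 were called, and 5 of 8 estimates were below 0. The share above 0 was 37.5%, beside 61.2% of all genes. Stx1a, the neuronal syntaxin, read 1967.3, 2444.3, 2570.7, 2175.9 and 2219.9 in wild type with its brightest probe set. The KO arrays read 1623.3 at the lowest, 1838 at the median and 2293.6 at the highest. KO 1 was the highest of them, and all other KO arrays lay below all wild type arrays. The difference was −0.27 ± 0.11 (95% interval −0.51 to −0.04, limma adjusted p = 0.589), and the other Stx1a probe set gave −0.42 ± 0.16 (limma adjusted p = 0.544).

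Snap25, the neuronal partner of Stx1a, read 1565.5, 1787.0, 1815.7, 1284.2 and 1381.9 in wild type. The KO arrays read 896.0 at the lowest, 1300.5 at the median and 1613.7 at the highest. KO 3, KO 4 and KO 6 lay below all wild type arrays, with KO 3 the lowest. The other KO arrays lay within the wild type range. The difference was −0.28 ± 0.15 with a 95% interval of −0.60 to 0.04 (limma adjusted p = 0.815). A dimmer Snap25 probe set had nearly the same mean in both groups, 115 ± 28.3 (SD) over the 5 wild type arrays against 114 ± 26.6 (SD) over the 6 KO arrays. Snap23, the relative of Snap25 found in most cells, had a difference of 0.29 ± 0.16, and Stx2, a syntaxin of many cell types, one of −0.29 ± 0.14.

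Of the 7 vesicle R-SNARE genes, 0 were called, and 5 of 7 estimates were above 0, or 71.4%, beside 61.2% of all genes. Vamp7, an X-linked R-SNARE of late endosomes and of neurite outgrowth, was the only one with separate groups. It read 762.4, 859.4, 844.9, 748.6 and 720.4 in wild type, and 899.2 at the lowest, 995 at the median and 1267.5 at the highest in the KO. The difference was 0.39 ± 0.13 (limma adjusted p = 0.337), and a second probe set gave 0.50 ± 0.17 (limma adjusted p = 0.359). In males only the brightest probe set differed by 0.39 as well (limma adjusted p = 0.268).

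Vamp2, the main R-SNARE of synaptic vesicles, read 834.4, 1083.6, 861.0, 637.7 and 694.9 in wild type. In the KO it read 416.2 at the lowest, on KO 3, 744 at the median and 985.2 at the highest, on KO 5. KO 1 and KO 3 lay below all wild type arrays and the other KO arrays lay within the wild type range. The difference was −0.18 ± 0.20 with a 95% interval of −0.60 to 0.23. Without KO 5 it was −0.28. Without KO 2 and KO 3, the arrays of highest GAPDH ratio, it was 0.02. Vamp1, its close relative, differed by −0.15 ± 0.14. Vamp3, Vamp4, Vamp5 and Vamp8, which serve endosomal and constitutive fusion, lay between 0.06 and 0.17.

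Syntaxin binding proteins held members with larger estimates in both directions, and 0 of their 6 genes were called. Stxbp5l (tomosyn-2), which binds the Q-SNAREs and inhibits release, had lower values with all 3 probe sets. The brightest read 124.4, 162.6, 75.9, 63.3 and 122.1 in wild type, and 55.7 at the lowest, 66.3 at the median and 102.3 at the highest in the KO. WT 3 and WT 4 lay among the KO values. The difference was −0.49 ± 0.21 (limma adjusted p = 0.639), and the other probe sets gave −0.66 ± 0.24 and −0.49 ± 0.19 (limma adjusted p = 0.444 and 0.520). Stxbp5 (tomosyn-1) differed by 0.09 ± 0.18, and by −0.02 without KO 5.

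Stxbp4, which binds syntaxin 4 outside the synapse, differed by 0.75 ± 0.29 with its brightest probe set (limma adjusted p = 0.523). It read 130.0, 158.3, 195.9, 140.3 and 171.7 in wild type. The KO arrays spread from 144.1 through a median of 299.9 to 640.4. KO 2 and KO 5 lay within the wild type range and KO 1 was the highest array. The other probe sets gave 0.77, 0.51 and 0.04, and KO 1 was the highest array in 2 of these 3. Stxbp2 and Stxbp6 differed by 0.26 ± 0.17 and 0.18 ± 0.13, and Stxbp3 by 0.00 ± 0.17.

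The complexins clamp and then assist the SNARE complex. Cplx1 read 122.2, 205.8, 95.3, 138.1 and 193.5 in wild type, and 144.6 at the lowest, 191 at the median and 612.2 at the highest in the KO. The highest value was that of KO 5, and KO 6 followed with 292.9. The difference was 0.61 ± 0.30 (limma adjusted p = 0.737), 0.34 without KO 5, and 0.20 without KO 5 and KO 6. Dimmer Cplx1 probe sets gave 0.40 ± 0.31 and 0.34 ± 0.20 (limma adjusted p = 0.932 and 0.850). KO 5 was the highest array in the first of these, at 215.2. In the second KO 1 was the highest, at 138.8, and KO 5 read 92.6. Cplx2, the other complexin measured, differed by −0.12 ± 0.14.

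Rab3 GTPases recruit vesicles to release sites. Of the 4 genes, 0 were called. Rab3c read 133.4, 139.7, 173.7, 133.7 and 126.0 in wild type with its brightest probe set, and 56.3 at the lowest, 81.3 at the median and 121.6 at the highest in the KO. All KO arrays lay below all wild type arrays. The difference was −0.64 ± 0.18 (95% interval −1.01 to −0.27, limma adjusted p = 0.187), and −0.80 with scaling on the spiked controls, where it passed (limma adjusted p = 0.0374). A second probe set with separate groups gave −0.66 ± 0.22 (limma adjusted p = 0.384). The other Rab3c probe sets gave −0.38 ± 0.32 and −0.15 ± 0.29, so all 4 estimates were below 0 while the groups overlapped in 2.

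Rab3a, the most studied of the family at synapses, differed by −0.04 ± 0.18 with a 95% interval of −0.42 to 0.34. KO 5 had its highest KO value of 1971.7, and the difference without KO 5 was −0.14. Rab3d, of secretory granules, had similar means but unequal spreads in its brightest probe set. This probe set read 731.5 to 950.3 in wild type, with an SD of 90.3, and 444.8 to 1558.0 in the KO, with an SD of 487. KO 2 and KO 5 read 1558.0 and 1500.1 and, with KO 6, lay above all wild type arrays. KO 1, KO 3 and KO 4 lay below all of them. The difference was 0.03 ± 0.27, and −0.13 without KO 5. The other Rab3d probe sets gave −0.29 ± 0.24, 0.03 ± 0.22 and 0.13 ± 0.20. Rab3d, too, was named only after its values were seen.

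**Figure D3:**
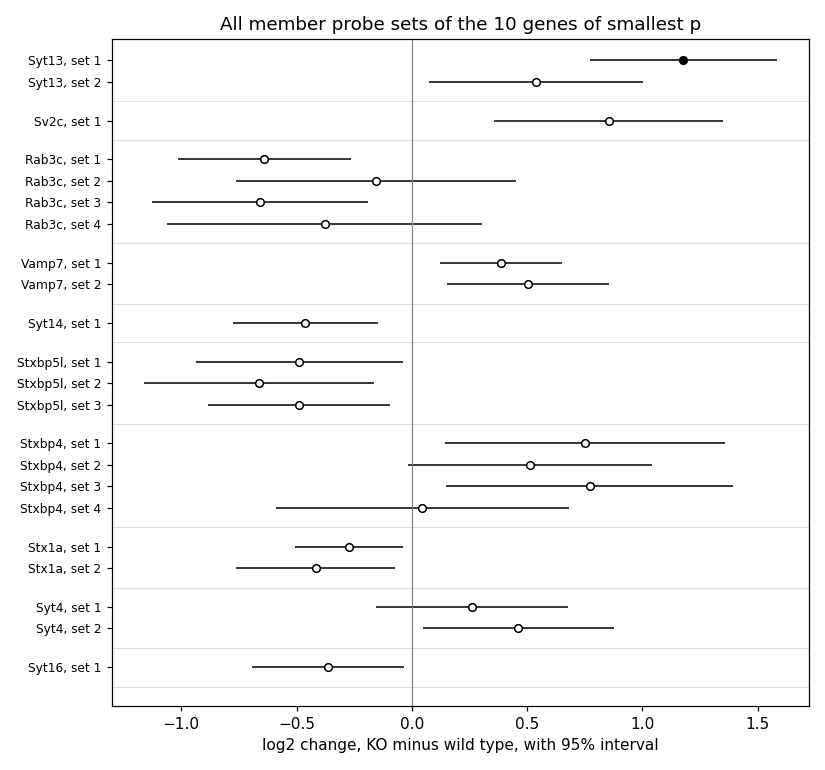
Log2 difference, KO minus wild type, with its 95% interval for all 22 member probe sets of the 10 genes of smallest p; sets are numbered within a gene. The filled point passed the test (Syt13). The estimates of a gene share a sign in all 7 genes with several probe sets, and their sizes differ, as for Rab3c from −0.15 to −0.66. The genes were picked by p from these same values, so the shared sign is not independent support.

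The proteins of the vesicle membrane and the synapsins, which tether vesicles to each other and to actin, made up 7 genes, of which 0 were called. Sv2c, of the Sv2 family of vesicle glycoproteins, was dim. It read 12.6, 18.4, 14.7, 5.8 and 31.3 in wild type, and 27.2 at the lowest, 42.1 at the median and 64 at the highest in the KO. WT 5 overlapped with the lowest KO arrays. The difference was 0.85 ± 0.24 (95% interval 0.36 to 1.35, limma adjusted p = 0.186). Its size depended on the pseudocount at this brightness, with 1.41 at a pseudocount of 1 and 0.40 at 64.

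Sv2a, the most widespread member of the family, read 271.4, 289.7, 238.1, 150.5 and 247.3 in wild type. In the KO it read 173.7 at the lowest, 262 at the median and 463.5 at the highest, on KO 5. The difference was 0.16 ± 0.22, and without KO 5 it was 0.01. Sv2b had estimates of −0.20 ± 0.18 and −0.22 ± 0.17 in its probe sets, and the brightest was −0.31 without KO 5.

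Syp, an X-linked membrane protein of synaptic vesicles, read 498.7, 615.1, 397.2, 329.8 and 348.8 in wild type. The KO arrays read 182.6 at the lowest, on KO 3, 400 at the median and 451.5 at the highest. The difference was −0.30 ± 0.22 with a 95% interval of −0.77 to 0.17, and −0.18 in males only. Syn1, also X-linked, differed by 0.07 ± 0.17 and Syn2 by 0.10 ± 0.17. Without KO 5 the Syn1 estimate was −0.04 and that of Syn2 0.17.

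The Q-SNAREs of endosomes, Golgi and endoplasmic reticulum had small estimates throughout. None of the 10 genes was called, and none of their 28 probe sets differed by as much as 0.25. Of the 28 estimates 22 were above 0, or 78.6%, beside 60.4% of all probe sets. Stx6, of the trans-Golgi network, had the largest ratio of estimate to error with 0.21 ± 0.10. Snap91 (AP180), a clathrin adaptor of neurons, differed by −0.11 ± 0.17.

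The core of exocytosis can be read side by side. The brightest probe sets of Snap25, Stx1a, Vamp1, Vamp2, Syt1, Cplx2, Rab3a, Sv2b and Syp had estimates from −0.30 to −0.04. They were grouped here by the sign of the estimate. Of these, Rab3a was above 0 in 7 of 28 alternatives, reaching 0.13, and Vamp2 in 1, at 0.02. Some of these alternatives share their estimates. Those of Syn1, Syn2, Sv2a and Cplx1 lay from 0.07 to 0.61, of which Syn1, Syn2 and Sv2a were below 0 with scaling on the spiked controls, and that of Rab3c was −0.64. Dimmer probe sets of the first group gave 0.13 for Vamp2, 0.00 for Snap25, 0.01 and 0.05 for Cplx2, and 0.09 for Syt1. Those of Stx1a, Rab3a and Sv2b and the remaining ones of Syt1 were below 0. Slc17a6, the transporter that loads glutamate into OSN vesicles, averaged 976 ± 140 (SD) over the 5 wild type arrays and 944 ± 97.2 (SD) over the 6 KO arrays. Its difference was −0.04 ± 0.13, with a 95% interval of −0.31 to 0.23. The 95% intervals of Stx1a and Rab3c lay below 0 and those of the others included 0. A p above the threshold does not show that the levels were equal.

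Other genes of the release pathway, 117 in 8 lists, were read by their brightest probe sets. None of these genes passed the test in limma as higher or as lower, and 10 were at an unadjusted p under 0.05, of which 7 had higher values and 3 lower. That is 8.55% of the list, 5.98% higher and 2.56% lower, beside 8.48% of all genes, 5.61% higher and 2.87% lower. Their median difference was 0.04. Among the 23 genes of the active zone and vesicle priming, 18 estimates were above 0, or 78.3%, beside 61.2% of all genes. The median of these 23 genes was 0.17, beside 0.05 over all genes. Rph3al (noc2), a Rab3 effector, had the smallest p of that list. It read 346.7, 343.1, 383.5, 280.4 and 340.7 in wild type, and 387.6 at the lowest, 461.5 at the median and 553.1 at the highest in the KO. The groups were separate, and the difference was 0.44 ± 0.14 (limma adjusted p = 0.305).

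In the list of other vesicle membrane proteins and transporters, with 17 genes, Synpr had the smallest p. Synaptoporin, its product, is a relative of synaptophysin. Its difference was 1.18 ± 0.45 (limma adjusted p = 0.515), and its value on KO 5 was 448.7, where the other KO arrays read 31.1 to 93.6 and the wild type arrays 8.3 to 55.7. Without KO 5 the difference was 0.73 (limma adjusted p = 0.613). Among 24 endocytosis genes Dnm1, the neuronal dynamin that cuts vesicles from the membrane, had the smallest p, with −0.36 ± 0.12 (limma adjusted p = 0.341). It read 1311.3 to 1884.1 in wild type and 1104.2 to 1353.7 in the KO, so that the groups overlapped.

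Among 9 synaptotagmin-like and Rab27 genes it was Sytl2, a Rab27 effector, with −0.43 ± 0.14 (limma adjusted p = 0.309), and among 14 voltage-gated calcium channel genes it was Cacna2d2, an auxiliary subunit, with 0.81 ± 0.28 (limma adjusted p = 0.423). In the remaining lists the smallest p-values belonged to genes with small estimates. The chaperone Hspa8 differed by 0.12 ± 0.07 among 8 genes of SNARE disassembly, the SNARE Ykt6 by −0.16 ± 0.14 among 17 other SNARE genes, and the Rab3 activator Madd by −0.14 ± 0.14 among 5 Rab3 regulators.

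Markers of the cells in the tissue were read beside these genes. Omp, the defining marker of mature OSNs, read 238.7 to 702.3 over the arrays, whereas Cngb1, a dim marker of the list, read 12.8 to 51.3. Of 10 mature OSN markers 5 fell, among them Stoml3, which differed by −1.21 ± 0.16 (limma adjusted p = 0.000794), and all 10 estimates were below 0. Their summed signal was 12926 to 17074 in wild type and 7408.8 to 10227 in the KO, with no overlap. Omp itself differed by −0.57 ± 0.18 (limma adjusted p = 0.309). Of 11 immature OSN markers 1 rose (Stmn4, 1.48 ± 0.20, limma adjusted p = 0.000857), and their summed signals overlapped, at 35655 to 43109 in wild type and 34721 to 44044 in the KO. The part of the mature OSN markers in the values of the synaptic genes was not tested.

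For olfactory bulb neurons 7 markers were measured above the minimum and 0 were called, while Tbx21 was below the minimum with a mean signal of 16.1. Their summed signal was 1420.9 to 2179.9 in wild type and 1281.0 to 4912.9 in the KO, where KO 5 was the highest. The marker of smallest p was Tbr1, a transcription factor of mitral cells, with 1.16 ± 0.31 (limma adjusted p = 0.15) and 0.94 without KO 5. All KO arrays but KO 3 lay above its wild type values, at 41.7 to 148 against 2.3 to 30.5. On KO 5 Eomes, of mitral and tufted cells, read 520.6 against 43.2 to 136 on the other arrays. Reln read 1895.5 against 392.9 to 1163, and Cdhr1 1301.8 against 484.2 to 1001.8. Slc17a7, the glutamate transporter of mitral cells, was dim on all arrays, at 14.2 to 38.7, and read 30.3 on KO 5. Among the synaptic genes with high values on the same array were Cplx1, Sv2a, Syt1, Rab3a and Syn1. KO 5 was the highest of all arrays for 20 of the 136 member probe sets, or 14.7%, beside 14.4% of all probe sets. Without KO 5 the member estimates above 0 numbered 76 of 136, and Syt13 was again the 1 member called (1.18, limma adjusted p = 0.0144).

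**Figure D4:**
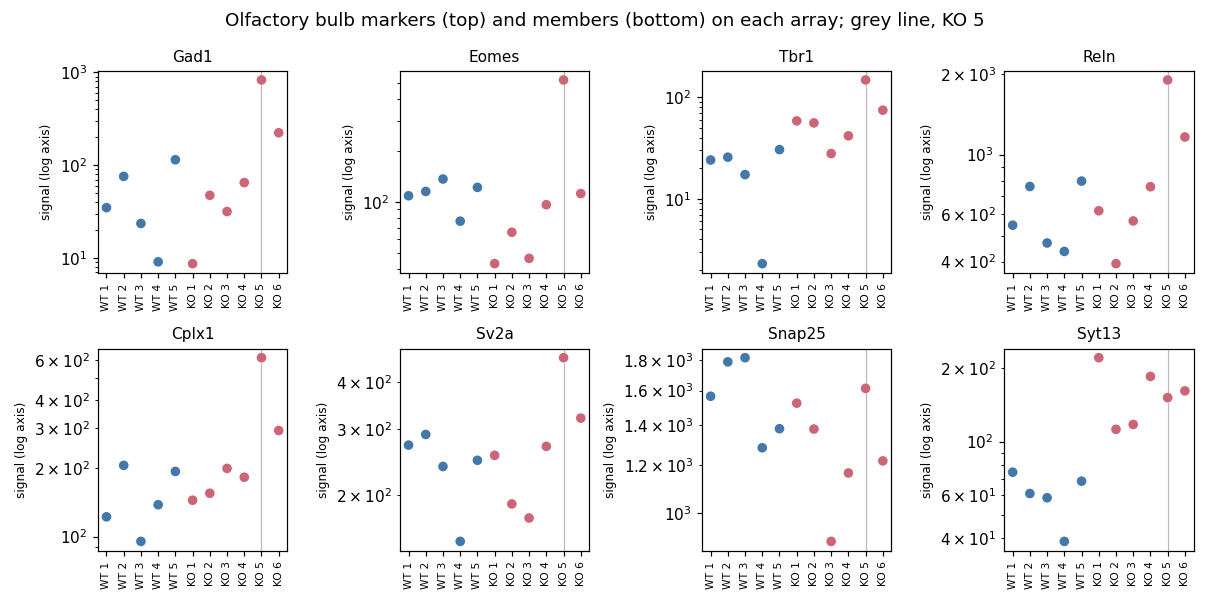
Signal on each array, on log axes, of 4 olfactory bulb markers (top) and 4 members (bottom, brightest probe set), wild type in blue and KO in red, with KO 5 on the grey line. KO 5 is highest for Gad1, Eomes, Tbr1, Reln, Cplx1 (612.2) and Sv2a (463.5), lies within the other arrays for Snap25, and is not the highest KO array for Syt13.

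At the other end, KO 3, a female with the highest GAPDH ratio, was the lowest array for 36 of the 136 members, or 26.5%, beside 28.1% of all probe sets. It was the lowest of all arrays for Snap25, Vamp2, Syt1, Rab3a and Syp. WT 4, with the lowest median signal, was also the lowest for 36 members, or 26.5%, beside 22.5% of all probe sets. Leaving out KO 3 and KO 2 moved the median difference of the members to 0.14 and that of all probe sets to 0.13. In males only these medians were 0.11 and 0.09. The part of RNA integrity in these values was not tested.

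Of the other marker lists, erythroid cells had 2 of 5 markers higher (the globins Hbb-y and Hbb-bh1), with summed signals of 858.1 to 1289.2 in wild type and 1299.6 to 1743.4 in the KO. None of the markers of ensheathing glia and Schwann cells (7), sustentacular cells (8), horizontal basal cells (5), macrophages and mast cells (9) or microvillar and tuft cells (6) was called in limma. At an unadjusted p under 0.05 were 3 of the 7 glial markers (Fabp7 with 0.86, Npy with 1.01 and Foxd3 with 0.58), 2 basal cell markers (Krt15 with −1.22 and Krt17 with −0.42), 1 sustentacular marker (Cyp1a2 with −0.46) and 0 of the other lists, beside 8.48% of all genes. Summed signals of the glial markers were 5499.7 to 9564.9 in wild type and 6017.7 to 14591 in the KO. The part of these cells in the values of Syt13 or of other members was not tested.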

How the data were processed

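The authors deposited linear intensities from Affymetrix Mouse Genome 430 2.0 arrays, a single table with each probe set's value on each array. Per the study's methods, the authors amplified cRNA from small amounts of total RNA and scaled each array linearly to GAPDH with the scanner's software, named GCOS by the submitters' processing notes without a version. A group difference in GAPDH would therefore move all other values. Groups, replicate numbers and sex came from the labels. The table held 45101 probe sets, 64 of them controls. Symbols came from the platform annotation, which gave 34958 probe sets 1 symbol, 932 several and 9211 none. Probe sets with several symbols were assigned to no gene, so 1 that Vamp1 shares with another gene was left out. No positions were taken, since the files name no build.

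Control probe sets and those with a mean signal under 20 were left out, and log2(signal + 16) of the other 33662 was fitted with lmFit and eBayes (trend) of limma 3.58.1 under R 4.3.3, with no covariate, Benjamini-Hochberg adjustment over all and a threshold of 0.05. The log2(signal + 16) scale understates differences of dim probe sets. Probe sets were not compared in level with each other. The members just above the minimum were Stxbp4, Syn3 and Syt13 probe sets with mean signals of 20.6, 20.6 and 20.8, and just below it were Stx6 and Stx3 probe sets with 19.7 and 19.4. A gene was represented by its brightest probe set unless stated. Named were members past the threshold, the 10 member genes of smallest p, the core of exocytosis, the 1 gene of smallest p in each pathway list, and Bcl11b, Omp and Slc17a6. The members and lists were chosen with earlier results of these data known.

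Alternatives were scaling on the array median or on spiked hybridization controls, quantile normalization, pseudocounts of 1 and 64, no minimum or a minimum of 100, no trend, weighting of arrays, the male arrays alone, a sex term, a replicate block, a division of the arrays by poly-A spike-in signal as a covariate and within each part, leaving out both arrays of highest GAPDH 3'/5' ratio, the mean over a gene's probe sets, and leaving out each array. Leaving out KO 5 and KO 6 together was chosen after seeing the data. All wild type arrays were male, so a sex term gave the same estimates as the male arrays alone. The replicate block likewise gave the same estimates as leaving out KO 6. These alternatives are therefore not all separate checks. Precision is set by the number of arrays; p-values here reflect how far separate preparations of a group differed.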

Additional observations from a re-analysis of the deposited data

Results flagged for a closer look

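In a search of 48 groups of values, each a named probe set in wild type or KO, 1 array lay far from the others of its group. For Syt16 the KO 3 array read 128.4, while the other KO arrays read 193.8 to 218.3. The gap to the nearest array was 0.772 of the range of the group, above Dixon's critical value for 6 samples. Chance alone puts about 1 in 20 groups past this value. Without KO 3 the Syt16 difference stayed below 0, and leaving out single arrays in turn gave −0.41 to −0.26.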

How the results depend on the processing

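Syt13 remained above 0 in every alternative, at 0.82 to 1.37, and past the threshold in all but the fits within each poly-A division, which hold 5 and 6 arrays; there 0 member probe sets and 0 member genes were higher. With scaling on the spiked controls, which moved the median of all probe sets from 0.05 to −0.12 and that of the members to −0.11, 2 member probe sets and 2 member genes were lower, Rab3c (−0.80, limma adjusted p = 0.0374) and Syt14 (−0.64, limma adjusted p = 0.0401), and 2 pathway genes, Dnm1 and Sytl2; Sv2a became −0.0084, Syn2 −0.077 and Syn1 −0.098. Rab3a, close to 0, became 0.076 with array weights, 0.033 in males only and with sex as a covariate, and 0.13 without both arrays of highest GAPDH ratio, where Vamp2 became 0.021 and 1 pathway gene, Erc2, was higher. Syn2 was −0.14 within the arrays of higher poly-A signal, and Sv2a −0.026 within those of lower signal. Without KO 5 and KO 6, Sv2a was −0.095 and Syn1 −0.011. Leaving out each array in turn gave 1 to 1 higher and 0 to 0 lower member probe sets and genes, a median of 0.01 to 0.12, Syt13 at 1.06 to 1.26 (limma adjusted p 0.00304 to 0.0245), Rab3a at −0.14 to 0.071, Syn1 at −0.038 to 0.12 and Syn2 at −0.022 to 0.17. Over all probe sets, 82 were higher and 71 lower with the GAPDH scaling used, 90 and 96 with median scaling, 121 and 172 with quantile normalization, 60 and 256 with the spiked controls, 225 and 120 with array weights, 76 and 44 with sex as a covariate, 119 and 107 with the poly-A division as a covariate, 204 and 80 without both arrays of highest GAPDH ratio, 59 and 36 without KO 5 and KO 6, 19 and 12 within the arrays of higher poly-A signal and 29 and 10 within those of lower signal. Leaving out single arrays gave 49 to 128 higher and 36 to 85 lower, fewest higher without WT 3 or WT 4. Arrays of the same replicate number did not deviate together (correlations −0.28 to 0.0085), so the numbers do not pair the samples; with the replicate block 1 member probe set was higher and 0 lower, with a median of 0.05 and Syt13 at 1.16 (limma adjusted p = 0.0336), and 62 and 29 of all probe sets were called.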

Other observations

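Among genes of the release pathway not described above, the calcium sensor Doc2a and the Rab3 effector Rph3a had higher values in the KO, both at low signals. Rph3a read 4.6 to 36.6 on the wild type arrays and 21.6 to 54.9 on the KO arrays, a difference of 0.79 ± 0.27 on the log2(signal + 16) scale (limma adjusted p = 0.381). Doc2a differed by 0.57 ± 0.23 (limma adjusted p = 0.563). Sh3gl3, an endophilin of endocytosis, had a difference of 0.47 ± 0.18 (limma adjusted p = 0.514), and the vesicle protein Svop one of −0.53 ± 0.23 (limma adjusted p = 0.629). These genes were named after their values were seen, and none of them passed the test.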
